A study of Caenorhabditis elegans with 2 samples.

Results

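The genes that encode the pre-mRNA splicing machinery of Caenorhabditis elegans were examined for promoter binding by ISW-1, the ATPase that drives the ISWI family of chromatin remodellers in this worm. The genes were taken by a rule on names, and this set of genes was chosen with earlier results of these data known. The rule took protein-coding genes whose Ensembl WBcel235 name begins with snr-, prp-, rsp-, uaf-, mog-, sftb-, rnp-, lsm- or gut-. Of 19973 nuclear protein-coding genes 56 met it. They were sorted into 9 groups by role. The prefixes also take in a few genes with other roles, such as lsm-1 of the cytoplasmic mRNA decay ring and rnp-8, which encodes a partner of the cytoplasmic poly(A) polymerase GLD-2 in the germline. ISW-1 was mapped by ChIP-seq in a single condition, with 2 samples labelled as biological replicates. The animals were whole L1 larvae at 6 hours of strain OP181, held without food after bleaching. They carried the integrated transgene wgIs181, which holds isw-1::TY1 EGFP 3xFLAG and unc-119(+), in an unc-119(ed3) background, and the tagged protein was precipitated with an antibody against GFP. Values therefore come from a transgenic copy of isw-1 in all tissues together, and no other genotype, stage or treatment was compared.

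Splicing removes introns through the spliceosome, which is built from the U1, U2, U4, U5 and U6 small nuclear ribonucleoproteins (snRNPs). Rings of Sm proteins hold the U1, U2, U4 and U5 RNAs, and a related LSm ring holds U6. U1 reads the 5′ splice site, while U2AF, SF1 and the U2 snRNP read the branch site and the 3′ splice site. The U4/U6.U5 tri-snRNP then joins, a protein complex around PRP19 and RNA helicases of the DEAH family activate the catalytic centre, and serine- and arginine-rich SR proteins help define exons. Nematodes also use this machinery for trans-splicing, which joins a spliced leader to the first exon of most mRNAs and to each mRNA of an operon. An operon is a row of closely spaced genes on the same strand that is transcribed from a promoter upstream of its first gene. ISWI-type remodellers slide and space nucleosomes.

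Sequences around 10 of the ISW-1 summits are given below. They are those of the highest peak in each of the 9 role groups and of snr-1, the next highest peak. Each runs 5′ to 3′ on the strand of the named gene and covers at most 99 bp on either side of the summit in the ce11 (WBcel235) build. Capitals mark TTCGAA and TGCGTCTC, a word counted at all summits. The sequences are ordered by TTCGAA, a word picked after its counts at the splicing gene summits were seen. The first 5 held it and the last 5 did not. The windows were chrV:11979982-11980180 (minus strand) for snr-4, chrIV:17087517-17087715 (plus) for snr-1, chrIII:8163957-8164155 (plus) for prp-8, chrIII:5172581-5172719 (minus) for prp-19 and chrII:98097-98295 (plus) for sftb-6. They were chrII:11126511-11126709 (plus) for lsm-1, chrII:11453111-11453309 (plus) for rsp-1, chrII:14561762-14561960 (minus) for mog-4, chrIII:9521785-9521983 (plus) for prp-40 and chrIII:5308368-5308566 (plus) for mog-3. The prp-19 window was cut to 139 bp where the neighbouring gene K10D2.5 begins. Every window lay between protein-coding genes.
snr-4: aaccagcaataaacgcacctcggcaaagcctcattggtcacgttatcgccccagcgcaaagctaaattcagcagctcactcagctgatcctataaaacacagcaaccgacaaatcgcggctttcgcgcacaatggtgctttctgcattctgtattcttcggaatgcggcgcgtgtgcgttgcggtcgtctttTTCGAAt
snr-1: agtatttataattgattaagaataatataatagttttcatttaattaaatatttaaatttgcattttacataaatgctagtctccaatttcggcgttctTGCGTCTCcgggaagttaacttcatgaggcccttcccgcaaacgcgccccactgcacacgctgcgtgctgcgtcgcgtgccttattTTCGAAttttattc
prp-8: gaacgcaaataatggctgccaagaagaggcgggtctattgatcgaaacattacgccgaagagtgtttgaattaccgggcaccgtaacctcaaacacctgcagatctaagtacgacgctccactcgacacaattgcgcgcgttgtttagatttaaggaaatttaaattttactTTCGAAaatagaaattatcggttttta
prp-19: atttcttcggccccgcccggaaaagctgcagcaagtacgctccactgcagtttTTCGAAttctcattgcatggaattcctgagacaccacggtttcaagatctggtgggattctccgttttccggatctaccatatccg
sftb-6: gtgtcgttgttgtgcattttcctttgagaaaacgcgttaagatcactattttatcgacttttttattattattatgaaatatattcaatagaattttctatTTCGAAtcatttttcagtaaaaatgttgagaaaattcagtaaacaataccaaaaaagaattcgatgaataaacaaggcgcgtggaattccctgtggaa
lsm-1: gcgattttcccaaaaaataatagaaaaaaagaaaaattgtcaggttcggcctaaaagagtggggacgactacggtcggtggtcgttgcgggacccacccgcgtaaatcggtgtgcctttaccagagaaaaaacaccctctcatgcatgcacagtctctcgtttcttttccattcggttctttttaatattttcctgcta
rsp-1: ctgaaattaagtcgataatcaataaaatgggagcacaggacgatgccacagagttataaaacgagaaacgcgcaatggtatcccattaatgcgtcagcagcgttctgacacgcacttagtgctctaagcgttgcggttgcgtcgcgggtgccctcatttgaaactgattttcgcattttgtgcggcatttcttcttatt
mog-4: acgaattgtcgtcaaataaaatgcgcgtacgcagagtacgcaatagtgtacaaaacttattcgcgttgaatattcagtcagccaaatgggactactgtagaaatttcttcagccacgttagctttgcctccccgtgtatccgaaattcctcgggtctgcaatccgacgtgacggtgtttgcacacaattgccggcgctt
prp-40: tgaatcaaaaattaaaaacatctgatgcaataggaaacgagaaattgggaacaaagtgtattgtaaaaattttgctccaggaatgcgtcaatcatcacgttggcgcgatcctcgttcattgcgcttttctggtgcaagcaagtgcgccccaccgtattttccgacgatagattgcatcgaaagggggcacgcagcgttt
mog-3: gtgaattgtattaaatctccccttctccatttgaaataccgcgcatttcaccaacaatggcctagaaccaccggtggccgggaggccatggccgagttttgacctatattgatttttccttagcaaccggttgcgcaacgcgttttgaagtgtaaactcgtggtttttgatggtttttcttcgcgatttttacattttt

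ISW-1 peaks stood at the promoters of 29 of the 56 splicing genes (51.8%, 95% Wilson interval 39 to 64.3%), against 10.0% of all protein-coding genes (1997 genes). A gene was called bound where a peak summit of the authors' conservative set, which holds 2143 peaks reproducible between the replicates, fell between 1000 bp before and 500 bp after the gene's outermost annotated start. The interval covers the number of genes only. Each replicate's own set gave a like count. Replicate 1 had 29 bound splicing genes (51.8%), against 9.82% of all genes, and replicate 2 had 25 (44.6%), against 8.60%. The other thresholded set of the series had 31 (55.4%), against 10.2%. Of the 29 bound genes, 25 (86.2%) were bound in both replicates' own sets, against 77.8% of all bound genes. The exceptions were gut-2, rsp-8 and prp-31, bound in replicate 1 only, and snr-7, which neither replicate's own set held.

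Sm and SR protein genes had the highest shares among the larger groups. Of the 7 Sm protein genes 6 were bound (85.7%), and of the 8 SR protein genes 7 were bound (87.5%). LSm protein genes followed with 5 of 8 (62.5%) and the genes of catalytic activation and the second step with 2 of 3 (66.7%). Shares were lower for U1 proteins (2 of 5, 40%), for U2 and 3′ splice site factors (3 of 9, 33.3%), for tri-snRNP proteins (2 of 6, 33.3%) and for DEAH helicases (1 of 3, 33.3%). Of the 7 remaining names, mog-3 alone was bound (14.3%). Groups of this size have wide intervals, from 48.7 to 97.4% for the Sm genes and from 12.1 to 64.6% for the U2 and 3′ splice site factors, and these overlap.

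**Figure D1:**
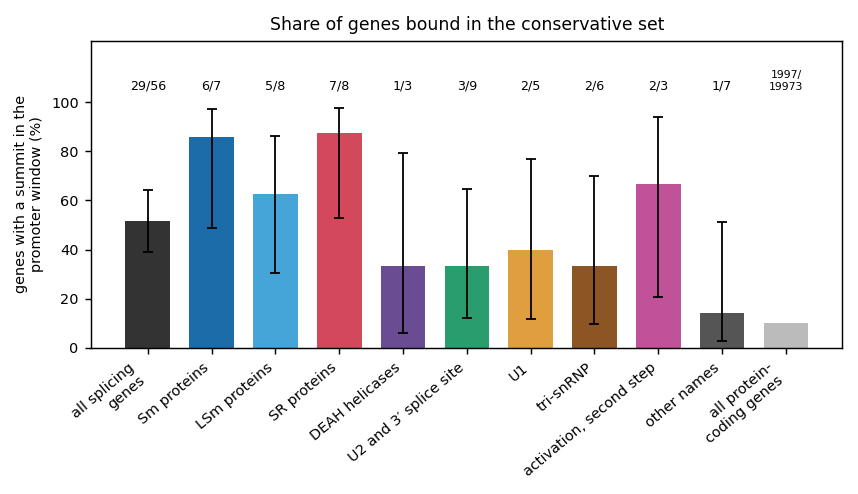
Percentage of genes with an ISW-1 summit in the promoter window (vertical axis) for all 56 splicing genes, for each role group and for all protein-coding genes, in the conservative set. Bars are shares, error bars are 95% Wilson intervals and the numbers above are bound genes over genes in the group. The Sm bar stands at 85.7% and the SR bar at 87.5%, against 10.0% for all protein-coding genes.

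Among the Sm protein genes, the peak of snr-4 (SmD2) was the highest. The signal value is the enrichment each peak received in the authors' peak calling, and it can be compared within a list only. It was 737 for snr-4 in the conservative set, with 433 for replicate 1 and 286 for replicate 2. The peak of snr-1 (SmD3) had 532 in the conservative set, with 375 for replicate 1 and 166 for replicate 2. That of snr-2 (SmB) had 325, 204 and 112 in the same order. All 3 peaks passed in both replicates. Lower values were found at snr-6 (SmE, 197 in the conservative set), snr-3 (SmD1, 189) and snr-7 (SmG, 116), and the last was bound in both sets of the whole series but in neither replicate's own set. In the replicates' full ranked lists, which also hold peaks that failed the threshold, the snr-7 peak had a signal of 69.0 in replicate 1 and 39.5 in replicate 2. snr-5 (SmF) was the Sm gene without a thresholded peak, and its window held a summit of signal 15 in the ranked list of replicate 2 and none in that of replicate 1. Summits thus lay in the windows of the genes of 6 of the 7 Sm ring proteins. Several lay nearer to the start of another gene. The snr-1 summit was 433 bp upstream of snr-1 and 178 bp upstream of snx-13. That of snr-2 was 352 bp upstream of it and 114 bp upstream of W08E3.4. That of snr-7 was 286 bp upstream of it and 4 bp upstream of Y71F9B.6, and that of snr-3 was nearer to rsp-5. With each summit given to the nearest start only, 2 Sm genes, snr-4 and snr-6, remained bound.

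Bound LSm protein genes had a median signal of 220.3 (118 to 331) in the conservative set, against 261 (116 to 737) for the bound Sm genes. These ranges overlap. lsm-1, which encodes the subunit found only in the cytoplasmic decay ring, had signals of 331 in the conservative set, with 198 for replicate 1 and 143 for replicate 2. Its summit lay between lsm-1 and rps-9, a gene of the small ribosomal subunit, 340 bp upstream of the first and 248 bp upstream of the second. lsm-7 had 238, 153 and 93.1, and lsm-3 had 220.3, 131 and 84.8, in the same order of sets. The lsm-3 summit lay 941 bp upstream of lsm-3 and within 171 bp of the starts of mdt-9 and 2 further genes, so the peak was much nearer to those. lsm-5 (155) and gut-2, the LSM2 gene (118), had the lowest peaks of the group. lsm-4, lsm-6 and lsm-8 were not bound, although lsm-6 was bound in the other thresholded set with a signal of 81.7.

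SR protein genes were bound at 7 of 8, through 6 distinct peaks. rsp-1 and rsp-2 are divergent genes whose starts lie 407 bp apart, and a single peak stood between them (chrII:11453097-11453327). Its signal was 477 in the conservative set, with 294 for replicate 1 and 177 for replicate 2, and its summit was 152 bp upstream of rsp-1 and 255 bp upstream of rsp-2. rsp-6 had 421, 257 and 153, and rsp-3, the gene of the SRSF1 orthologue, had 365, 237 and 137 in the same order. These 4 genes had peaks in both replicates. rsp-5 shared its peak (189, 118 and 76.8) with the Sm gene snr-3, the starts of these divergent genes being 404 bp apart. The peak of rsp-7 (109.6) was the lowest of all the bound splicing genes and also lay upstream of snu-13, which encodes a protein of the U4 snRNP. rsp-8 had 159.8 in the conservative set and 113 in replicate 1, and was missing from replicate 2's own set. rsp-4, the gene of the SRSF2 orthologue, was not bound in any thresholded set.

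The highest peak of the splicing genes stood at mog-4 (chrII:14561696-14562018), which encodes the orthologue of the DEAH helicase PRP2 and is needed for the switch from sperm to oocytes in hermaphrodites. It had a signal of 1776 in the conservative set, with 1137 for replicate 1 and 641 for replicate 2. Among all peaks it ranked 7 in the conservative set, 6 for replicate 1 and 7 for replicate 2. The summit was 262 bp upstream of mog-4 and counted for no other protein-coding gene. The helicase genes mog-1 (PRP16) and mog-5 (PRP22) differed from it in having no thresholded peak. In the ranked list of replicate 1 their windows held summits of signal 37.2 and 68.5, and in that of replicate 2 they held none.

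U2 and 3′ splice site factors were bound at sftb-6, sftb-1 and rnp-6. sftb-6, the gene of the small SF3B subunit at the branch site, had 356 in the conservative set, with 263 for replicate 1 and 97.6 for replicate 2. sftb-1, which encodes the large scaffold subunit SF3B1, had 205, 111 and 91.9. rnp-6, the gene of the PUF60 orthologue, had 161, 80.0 and 86.1, and it was the single gene of the 25 bound in both replicates' own sets whose value was higher in replicate 2, although values of separate lists are not on a common scale. The summit of sftb-6 lay 208 bp upstream of that gene and 169 bp upstream of luc-7L3, whose name marks it as a relative of the U1-associated LUC7 proteins. That of sftb-1 lay 451 bp upstream of sftb-1 but 22 bp upstream of R10E4.1. That of rnp-6 lay 155 bp upstream of rnp-6 but 6 bp upstream of rde-10. With each summit given to the nearest start only, 0 genes of this group remained bound. The genes of both U2AF subunits, uaf-1 and uaf-2, were not bound, nor were sftb-2, prp-9, prp-21 and mog-2. prp-21, which encodes an SF3A subunit, was bound in the other thresholded set (123) and by replicate 1 alone (91.5). In replicate 2's ranked list it had a signal of 22.9.

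Of the U1 group, prp-40 had a signal of 500.1 in the conservative set, with 273 for replicate 1 and 232 for replicate 2, and its summit was 191 bp upstream. rnp-2, which encodes an RNA-binding protein of the U1 snRNP, had 134, 68.5 and 62.7. prp-39, rnp-3 and rnp-7, the gene of the U1 70K protein, were not bound. In the tri-snRNP group, prp-8, the gene of the large protein at the catalytic centre, had 519.7, 312 and 204 with its summit 317 bp upstream. prp-31 had 118 and 88.5 and no thresholded peak in replicate 2, and its irreproducible discovery rate (IDR) in the series' ranked list was 0.00997, just inside the threshold of 0.01. The first splicing gene outside it was lsm-6, with 0.0132. Among the activation and second-step genes, prp-19, which encodes the ubiquitin ligase that gives its complex its name, had 907, 532 and 371. This summit lay 635 bp upstream of prp-19 but 40 bp upstream of K10D2.5, to which it was much nearer. prp-18 had 147, 104 and 44.5, and prp-17 was not bound. mog-3, whose summit was 129 bp upstream and counted for no other gene, had 250.3, 169 and 78.7.

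**Figure D2:**
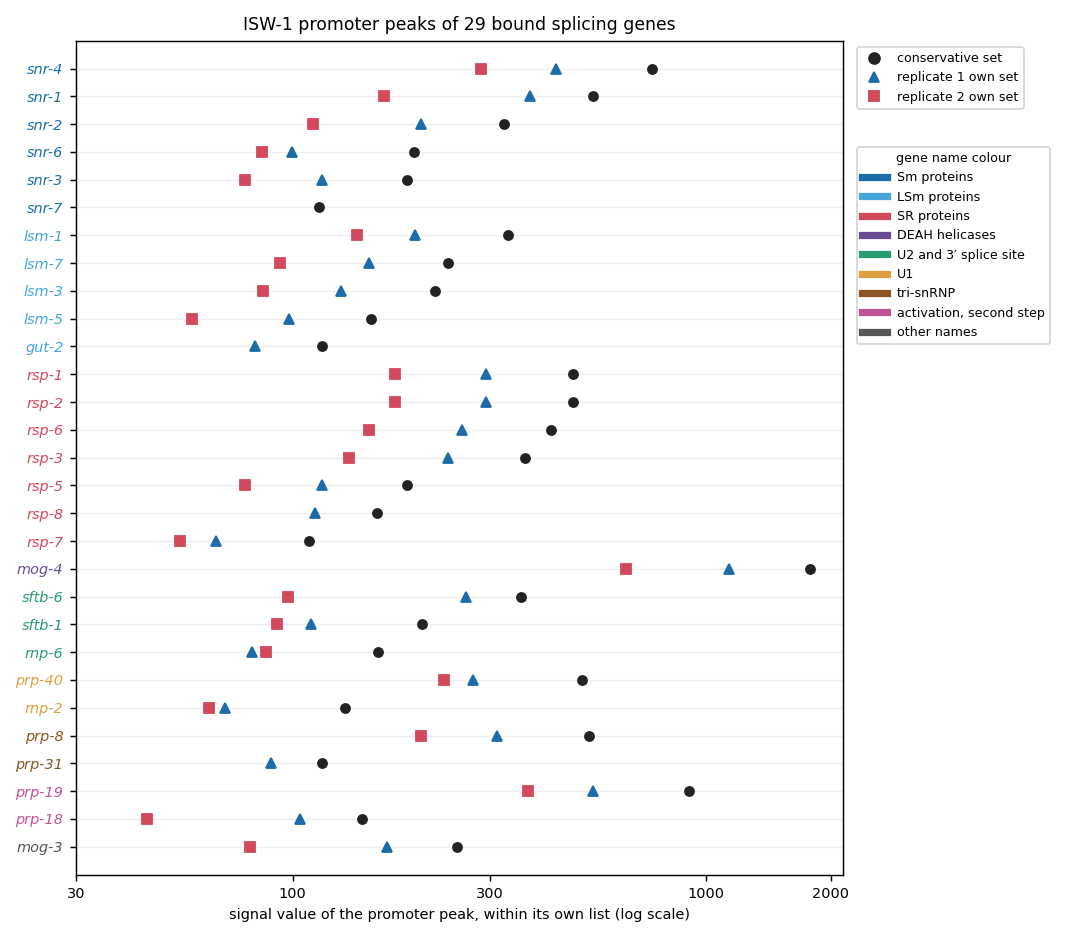
Signal value of the promoter peak (horizontal axis, log scale, the authors' caller value within each list) for the 29 bound splicing genes, grouped by role. Circles are the conservative set, triangles replicate 1's own set and squares replicate 2's own set, and a missing symbol means no thresholded peak. mog-4 stands apart at 1776, prp-19 and snr-4 follow at 907 and 737, and rsp-7 is lowest at 109.6.

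The peaks of splicing genes were about as high as those of all bound genes. Their median signal was 238 in the conservative set, with quartiles of 159.8 and 477 and a range of 109.6 to 1776, while all bound genes had a median of 232 and quartiles of 147 and 390.2. A signal of at least 500 was reached at 6 bound splicing genes (20.7%), against 337 of all bound genes (16.9%). Over the 23 distinct peaks of splicing genes found in both replicates' own sets, the replicates' summits differed by a median of 14 bp and at most 58 bp, against a median of 12 bp over 1061 peaks of all genes. Ranks of these 23 peaks in the replicates followed each other (Spearman rho 0.921, and 0.900 over all genes), given as a description because peaks share libraries.

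Every summit of a bound splicing gene lay upstream of the gene start. The median distance was 259 bp, the quartiles 352 and 174 bp, and the range 33 bp at gut-2 to 941 bp at lsm-3, while all bound genes had a median of 228 bp and 94.7% of summits upstream. From 100 to 400 bp upstream lay the summits of 21 splicing genes (72.4%), against 56.2% of all bound genes. Peaks were about as wide as elsewhere, with a median width of 289 bp (110 to 376 bp) against 303 bp. Every splicing gene peak with a signal of at most 205 was exactly 376 bp wide, so the widths say little about the extent of binding. The 27 distinct summits all lay between protein-coding genes.

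**Figure D3:**
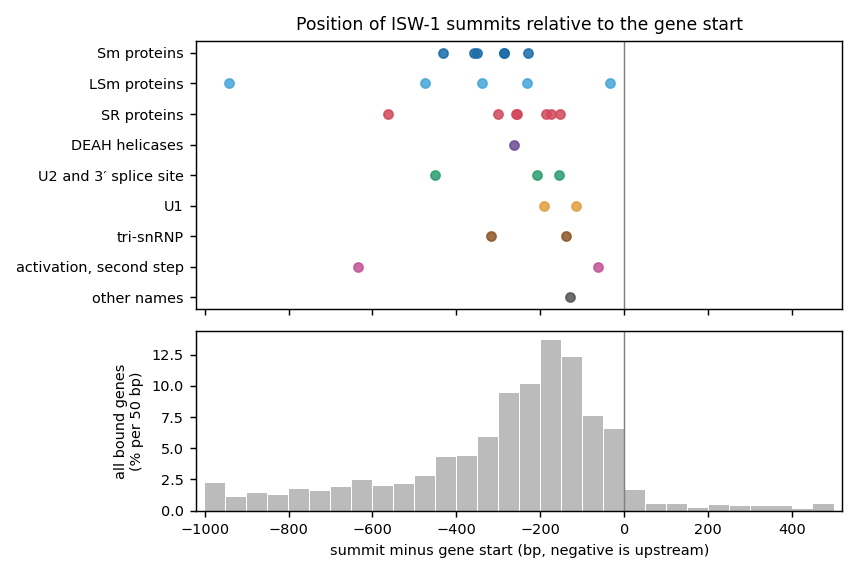
Distance from the gene start to the ISW-1 summit (horizontal axis, bp, negative is upstream) in the conservative set. The upper panel has a point for each bound splicing gene by role group, and the lower panel is a histogram of all bound protein-coding genes (vertical axis, percent per 50 bp). All 29 points lie left of 0, with a median of -259 bp.

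Most of these peaks stood in promoters shared with a further gene. For 23 of the 29 bound splicing genes (79.3%) the summit also lay in the window of another protein-coding gene, against 58.9% of all bound genes, so the signal is not that of the splicing gene alone. Exceptions were snr-4, lsm-5, rsp-6, rsp-8, mog-4 and mog-3. When each summit was given to the nearest start only, 15 splicing genes (26.8%) remained bound, against 6.97% of all genes. Among the partners were rps-9, the dynactin gene dnc-1 (at lsm-7) and the mitochondrial carboxylase gene mccc-1 (at prp-18). For 2 pairs both genes met the name rule, namely rsp-1 with rsp-2 and snr-3 with rsp-5, besides the pairs with snu-13 and luc-7L3 given above. The arrangement of genes moved with the calls. A divergent neighbour, at any distance, lay upstream of 35 splicing genes (62.5%), against 42.2% of all genes. Of these 35, 23 were bound (65.7%), against 16.2% of all genes with such a neighbour. The 35 include distant neighbours, such as those of mog-4 (12015 bp away, bound) and prp-6 (5152 bp away, not bound). With a neighbour on the same strand less than 1000 bp upstream, 3 of 12 were bound (25%), against 6.21%. With a more distant same-strand neighbour 2 of 5 were bound (40%), against 4.23%. The share of splicing genes was thus above that of all genes within each of these arrangements. The part of the arrangement in the calls was not tested further.

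Splicing genes on each autosome were bound more often than all genes of the same chromosome. The shares were 44.4% on I (4 of 9), against 14.9% of all genes, 57.1% on II (8 of 14), against 9.94%, and 53.3% on III (8 of 15), against 16.4%. On IV they were 66.7% (6 of 9), against 9.78%, and on V 37.5% (3 of 8), against 6.21%. The 1 splicing gene on X, rnp-9, was not bound, against 5.82% of all genes there.

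Of the 27 splicing genes without a conservative promoter peak, several followed closely behind a bound gene. For 9 of them a gene on the same strand ended less than 500 bp upstream, and in 7 of these 9 (77.8%, 95% Wilson interval 45.3 to 93.7%) that gene was itself bound, against 17% of all unbound genes placed in this way (563 of 3312). rnp-3, which encodes an RNA-binding protein related to that of rnp-2, began 72 bp behind rnp-2, whose peak (134) lay 2127 bp upstream of rnp-3. rnp-7 began 4 bp behind syf-2, a splicing factor gene outside the name rule, with a peak of 552. prp-38 began 106 bp behind plrg-1, which encodes a PRP19 complex protein, with a peak of 451. In these 3 pairs the gene in front was thus also a splicing gene. The other 4 lay behind genes of other roles. lsm-8 followed sqd-1, an RNA-binding protein gene, with a gap of 103 bp (1119), and prp-39 followed hmgs-1, the gene of HMG-CoA synthase, with 90 bp (516). lsm-6 followed the ubiquitin-conjugating enzyme gene ubc-3 with 232 bp (259.7), and prp-3 followed smrd-1 with 344 bp (301). Some of these peaks were shared with a further gene. The summit at syf-2 lay 404 bp upstream of syf-2 and nearer to the start of the divergent gene K04G7.1. Those at rnp-2 and hmgs-1 also lay in the windows of K08D10.13 and F25B4.4, in that order. mog-2 and rnp-4 had no bound gene in front. Operons were not read from the annotation, so whether these genes share a transcript was not tested. A further 2 unbound genes, rsp-4 and rnp-1, begin inside the bound genes ndx-6 (309) and dpy-30 (161).

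**Figure D4:**
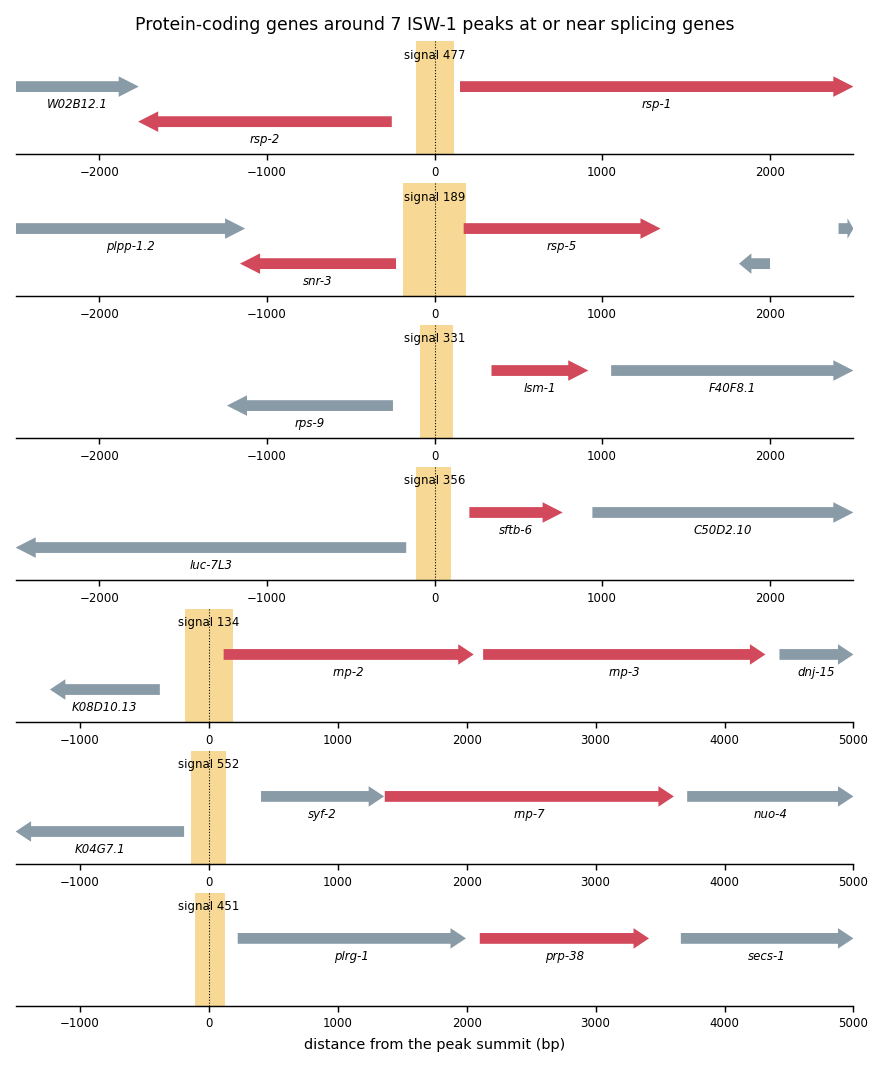
Protein-coding genes around 7 ISW-1 peaks of the conservative set, drawn to scale as distance from the summit (horizontal axis, bp). Arrows run in the direction of transcription, red arrows are splicing genes chosen by name, grey arrows are other genes, and the shaded band is the peak with its signal above. The upper 4 panels have peaks between divergent genes, and in the lower 3 the unbound genes rnp-3, rnp-7 and prp-38 follow a gene with a peak upstream of its start. The rnp-3 panel's peak is shared with K08D10.13, and that of the rnp-7 panel lies nearer to K04G7.1 than to syf-2.

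Outside the conservative set, many of the unbound splicing genes had weak summits. The full ranked lists held a summit in the window of 42 splicing genes (75%) in replicate 1, against 32.3% of all genes, and of 44 (78.6%) in replicate 2, against 44.9%. Among the 27 unbound genes these were 13 in replicate 1 (48.1%, against 24.8% of all unbound genes) and 15 in replicate 2 (55.6%, against 38.8%). Their signals had a median of 31.2 in replicate 1 (21.5 to 91.5) and 20.4 in replicate 2 (12.7 to 50.5), close to the list medians of 28.6 and 17.1. The highest value of replicate 1 was that of prp-21, which passed the threshold in that replicate's own set. 8 genes had such a summit in both replicates, among them uaf-2 (28.8 and 50.5), prp-9 (53.7 and 15.6) and prp-6 (31.6 and 18). No summit in either list was found for 7 genes, namely rnp-3, rnp-7, prp-3, prp-38, rnp-4, rnp-5 and rnp-8. That is 25.9% of the unbound splicing genes, against 50.3% of all unbound genes. Of these 7, rnp-3, rnp-7, prp-3 and prp-38 are among those that follow a bound gene.

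Sequence at the summits was examined with 2 words in view, TGCGTCTC and the GA repeat GAGAGAGA, searched on both strands within 100 bp of each distinct summit. TGCGTCTC was found at 3 of 27 splicing gene summits (11.1%; snr-1, rsp-7 and prp-18), against 13.5% of all 1418 summits in promoter windows. GAGAGAGA was found at 1 (3.70%; gut-2), against 7.40%. In the promoters of all protein-coding genes, taken from 250 bp before to 50 bp after the start, TGCGTCTC was present in 3.32% and GAGAGAGA in 3.54%. GC content was 40.5 ± 5.01% at splicing gene summits (SD, n = 27) and 42.1 ± 7.21% at all promoter summits (SD, n = 1418). Both shares of all promoter summits lay inside the 95% Wilson intervals of the splicing gene shares (3.85 to 28.1% and 0.657 to 18.3%). The SDs give the spread between single summits, and the difference between the mean GC contents was not tested.

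A palindrome was common at the splicing gene summits. When all words of 6, 7 and 8 letters were counted, TTCGAA had the largest difference among those of 6 letters, with 17 of 27 splicing gene summits (63.0%), against 16.4% of the 1391 other promoter summits. This word was picked from 2080 after its counts were seen, so its share at these summits is a description. At the 36 distinct summits of other splicing genes, which are among the 1391, it was present at 14 (38.9%, 95% Wilson interval 24.8 to 55.1%). In stretches of equal length 500 bp to either side of the splicing gene summits it was found in 20.4% (11 of 54). All 6 Sm gene summits held it, as did the 3 summits of U2 and 3′ splice site factors, both of the tri-snRNP group and both of the activation and second-step group. SR gene summits held it at 4 of 6 and LSm gene summits at 1 of 5. The summit shared by snr-3 and rsp-5 counts in both the Sm and the SR group. It was not found at mog-4, mog-3, prp-40 or rnp-2, nor at rsp-8 or the peak of rsp-1 and rsp-2, and the sequences of 4 of these peaks are printed above. The centre of the nearest TTCGAA lay from 4.5 bp (sftb-6) to 95.5 bp (snr-4) from the summit, with a median of 47.5 bp. Matches were sought within 100 bp only, and these distances spread over that whole range. They thus do not show the word to be centred on the summits.

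The longer word TTTTCGAA, which contains TTCGAA, led the words of 8 letters. It was picked from 31048 after its counts were seen, so its share at these summits is also a description. It was present at 14 of the 27 summits (51.9%), against 7.26% of the other promoter summits, and again at all 6 Sm gene summits. At the other splicing genes' summits it was present at 4 of 36 (11.1%), close to the 9.26% of the flanking stretches. Within 50 bp of the summit it was present at 25.9%. In the promoter sequence of 300 bp around the start TTCGAA was found for 50% of splicing genes, against 18.2% of all protein-coding genes. This share was 55.2% for bound and 44.4% for unbound splicing genes. Within 100 bp of the point 259 bp upstream of the start, a place set by the bound genes' own median, it was 51.7% for bound and 18.5% for unbound splicing genes, against 12.4% of all genes. TTTTCGAA was found there for 41.4% of bound and 11.1% of unbound splicing genes, against 5.98% of all genes. Words and place were both set by the bound genes, so these gaps between bound and unbound genes are a description. In the promoter sequence of 300 bp TTTTCGAA was found for 41.4% of bound and 29.6% of unbound splicing genes, against 8.16% of all genes. A match is a stretch of letters, and no factor was assigned to it.

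Splicing genes outside the name rule were bound at a similar rate. They were listed with earlier results of these data known, so their share is a description. Of 76 further genes 36 were bound (47.4%, 95% Wilson interval 36.5 to 58.4%), against 10.0% of all protein-coding genes. There were 37 in the set of replicate 1, against 9.82% of all genes, and 34 in that of replicate 2, against 8.60%. Core spliceosome genes made up 22 of 44 (50%). The highest were smu-1, a spliceosome component first known from unc-52 splicing (653 in the conservative set, with 398 for replicate 1 and 247 for replicate 2), syf-2 (552, 346 and 207), rsr-1 (487, 297 and 194), the cyclophilin gene cyn-4 (486, 313 and 169) and plrg-1 (451, 284 and 176). Alternative splicing regulators were bound at 11 of 23 genes (47.8%). They included the hnRNP genes hrpa-1 (518, 326 and 194), hrpk-1 (369, 253 and 112) and hrpr-1 (320.0, 186 and 131), and the FOX-1 family gene asd-1 (274, 181 and 97.4). Genes of trans-splicing and snRNP assembly were bound at 3 of 9 (33.3%). These were sna-3 (223), snpn-1, the snurportin gene (187), and sna-2, which encodes a protein of the spliced leader snRNP (142). sna-2 had no peak in replicate 1's own set and snpn-1 none in replicate 2's.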

How the data were processed

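ISW-1 ChIP-seq of 2 biological replicates was deposited as 8 peak lists on the ce11 build. The authors' signal value is their caller's enrichment of a peak, and the deposited −log10 column of the ranked lists holds the global IDR, as read from the column layout. For the aligner, caller and control the sources used here give no name. A further 16 columns per sample in the series' ranked lists were not used.

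Summits were set against Ensembl release 115 genes in Python 3.11.15 with numpy 2.4.6 and scipy 1.17.1, and calls were tested on simulated data. The conservative set was the main one, and 1 summit could mark more than 1 gene. Names were given to all bound splicing genes, to unbound ones as examples, to genes sharing a summit or in front of an unbound gene, and to the 5 highest bound genes of each further list, of which 1 alternative splicing regulator is not reported here. The splicing genes, the further lists and the words were chosen with earlier results of these data known, and syf-2, plrg-1 and the other genes in front were named after their values were seen. Of 79 further names 3 (xab-2, gemn-2 and tiar-3) matched no gene. There were no groups to test, so shares stand beside those of all genes. Lists carry no read counts: depth is unknown. 12 settings were tried.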

Additional observations from a re-analysis of the deposited data

How the results depend on the processing

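Of 150 recomputed values 120 stayed near the main value and 30 moved (a count by over 1.5 times, a median by more than the spread between replicates, or a share out of its interval). The count of 29 bound splicing genes was 18 (32.1%, against 6.02% of all genes) with peaks at or above the median signal and 15 with the nearest start only. With peaks at or above the median signal, 3 LSm, 4 SR, 1 U1, 1 tri-snRNP and 1 activation and second-step genes stayed bound. With the nearest start only there were 2 Sm, 2 LSm, 4 SR, 0 U2 and 3′ splice site and 1 activation and second-step genes. An IDR of at most 0.001 gave 1 U1 and 1 tri-snRNP gene, the window of 500 bp upstream to 250 bp downstream gave 1 activation and second-step gene, and the window of 2000 bp to 1000 bp or an overlap of 1 bp gave 2 genes in the group of other names. Leaving out a replicate gave 1 to 2 tri-snRNP genes and a median signal of 97.6 to 153, on the scale of the remaining list. The median signal was 393 with higher peaks, 197 with nearest starts and 328 with the stricter IDR. The median distance was -274 bp with higher peaks, -244 bp and -286 bp with the narrower and wider window, and -186 bp with nearest starts. GAGAGAGA was at 0% of summits with higher peaks and at 0 to 3.70% without a replicate. TTTTCGAA, whose settings were chosen after seeing the data, was at 25.9% within 50 bp of the summit. The cause of these moves was not tested, apart from the fewer peaks or starts that each setting keeps. No paired analysis was possible because the replicates belong to a single group. Small groups, 2 replicates, 1 condition and unknown depth limit every share.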
